A study of Mus musculus with 8 samples.

Results

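The collagen chain genes of the mouse were examined in 5555-mEGFP cells, a mouse melanoma line that carries a green fluorescent protein, on Illumina mouse BeadChip arrays. Every gene was taken whose annotated symbol is Col, a number, the letter a and a number, which gave 37 genes with 59 probes, of 16593 named genes and 25697 probes on the array. Of the 37 genes, 14 were detected, taken here as a probe whose detection p, its rank against the negative control beads of the array, fell below 0.01 on no fewer than 2 of the 8 arrays.

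The 8 arrays fell into 4 groups of 2. The groups were 5555-mEGFP cells grown with MAF2-mCherry cells, a line of melanoma-associated fibroblasts, and given PLX4720 (PLX4720-treated co-cultures); the same co-cultures given DMSO; 5555-mEGFP cells grown alone and given PLX4720 (PLX4720-treated mono-cultures); and mono-cultures given DMSO. PLX4720 is an inhibitor of the BRAF kinase. The labels give its dose as 1 mM, the DMSO vehicle as 0.1% and the time as 24 h. It cannot be told from them if micromolar was intended. The labels state that mEGFP-positive cells were sorted from the co-cultures, and do not state whether mono-cultures were sorted or whether the 2 arrays of a group came from separate cultures, so the p-values measure the spread between these arrays, which may be technical. All cells were kept in DMEM with fetal bovine serum, and all results are from 1 melanoma line and 1 fibroblast line.

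Collagens are the main structural proteins of the extracellular matrix, and each molecule is a triple helix of 3 chains that come from 1 gene or from several. Fibrillar collagens build the fibers of connective tissue, the type IV chains build the sheet-like network of basement membranes, and other classes decorate fibrils, anchor membranes to the tissue below or span the cell membrane. Fibroblasts are the best known source of fibrillar collagen in skin and in tumors, and some tumor cells make it as well.

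The arrays detected similar numbers of probes, from 9755 to 10021 each, and the 2 arrays of a group correlated with r of 0.990 to 0.995 over the 7357 genes tested. Of 12 melanocyte lineage genes, 9 had a probe (Mitf, Dct, Tyr, Tyrp1, Pmel, Mlana, Mc1r, Ednrb and Slc45a2), and none of the 9 was detected on any array, so the defining markers of the labelled cell type were not detected here. Of 18 fibroblast markers that are no collagens, 17 had a probe. The fibroblast genes Dcn, Lum, Thy1, Fap, Postn, Tcf21, Gli1, Pi16, Dpt and Lox were detected on no array, Pdgfra, Pdgfrb, Cd248, Twist2 and Prrx1 were detected on all 8, and Mfap5 and Ogn on all 4 PLX4720 arrays and on no DMSO array. The smooth muscle actin gene Acta2 was detected on all 8 arrays, and its probe averaged 12.85 in PLX4720-treated co-cultures and 6.71 in DMSO-treated co-cultures on the log2 scale, with 13.04 in PLX4720-treated mono-cultures and 9.11 in DMSO-treated mono-cultures. No endothelial gene of 4 and no leukocyte gene of 2 with a probe was detected.

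**Figure D1:**
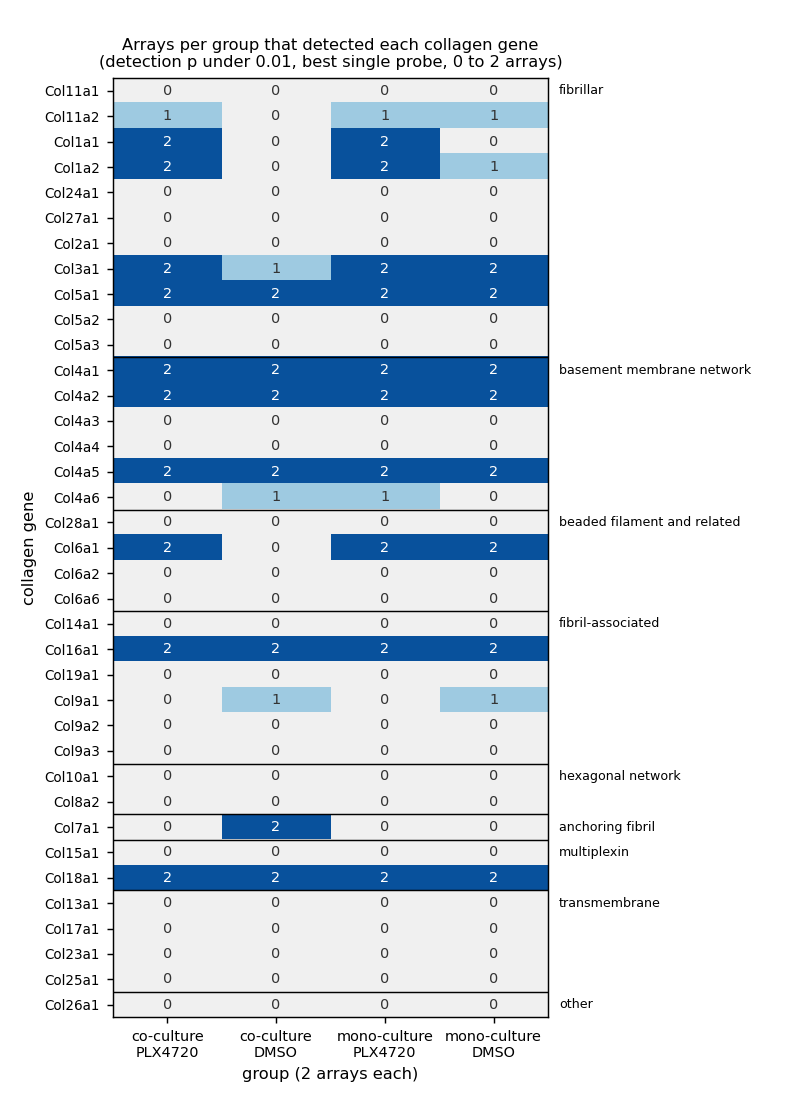
Each row is 1 of the 37 collagen genes, ordered by structural class, and each column 1 group of 2 arrays. The number and shade give on how many of the 2 arrays the best single probe had a detection p under 0.01. 23 genes were at 0 in all groups, and Col7a1 was at 2 in DMSO-treated co-cultures only.

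The detected genes were spread unevenly over the structural classes. Of 11 fibrillar genes, Col1a1, Col1a2, Col3a1, Col5a1 and Col11a2 were detected. Of the 6 type IV genes, Col4a1, Col4a2, Col4a5 and Col4a6 were detected, and Col4a3 and Col4a4, the chains of the mature kidney filter, were not. Col6a1 was 1 of 4 beaded filament and related genes and was the only detected gene among them, and its trimer partner Col6a2 was not, while Col6a3 has no named probe. Col9a1 and Col16a1 were detected among 6 fibril-associated genes, Col18a1 among 2 multiplexins, and Col7a1, the chain of anchoring fibrils, as the 1 gene of its class. None of 4 transmembrane genes, none of 2 hexagonal network genes and not Col26a1 passed. Only 6 genes were detected on all 8 arrays, namely Col4a1, Col4a2, Col4a5, Col5a1, Col16a1 and Col18a1. RefSeq lists 44 such genes in the mouse, and Col12a1, Col20a1, Col22a1, Col6a3, Col6a4, Col6a5 and Col8a1 had no named probe here.

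In PLX4720-treated co-cultures, 11 collagen genes were detected on at least 1 array and 10 on both. In DMSO-treated co-cultures, 10 and 7 were. In PLX4720-treated mono-cultures, 12 and 10 were, and in DMSO-treated mono-cultures, 11 and 8 were. Of the 59 probes, 43 were detected on no array, among them probes of genes that another probe detected. Col18a1 has 3 probes and Col9a1 has 3, and only 1 of each was detected. The intensity of the 43 probes reached at most 167, so they give no level and no fold.

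The regions before the transcription starts of 4 genes, 3 fibrillar and 1 beaded filament, are shown as examples of genes that were higher under PLX4720 in both cultures, chosen after their values were seen. Col4a5, which has a window, and Col1a1, which has none here, were also higher in both. They are the 250 bases before the start in RefSeq, build GRCm38.p6, read 5′ to 3′ on the strand of the gene, in lower case with motif matches in capitals. Of the 37 genes, 30 had such a window, and 13 of the 14 detected genes did. The motifs searched, on both strands, were the box CCAAT, the GC box, which reads GGGCGG, the TATA box in the form TATAAA, and the letters TGANTCA, which hold the motif of AP-1 factors. No match overlapped another in these 4 windows. The windows are Col5a1 at chr2:27886175-27886424 on the + strand, Col3a1 at chr1:45311288-45311537 on the + strand, Col1a2 at chr6:4505368-4505617 on the + strand, and Col6a1 at chr10:76726045-76726294 on the - strand.
Col5a1: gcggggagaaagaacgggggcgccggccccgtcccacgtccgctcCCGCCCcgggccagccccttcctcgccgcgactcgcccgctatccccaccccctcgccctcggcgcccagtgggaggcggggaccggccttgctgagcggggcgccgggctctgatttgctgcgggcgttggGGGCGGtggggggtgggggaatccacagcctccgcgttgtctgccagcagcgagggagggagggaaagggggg
Col3a1: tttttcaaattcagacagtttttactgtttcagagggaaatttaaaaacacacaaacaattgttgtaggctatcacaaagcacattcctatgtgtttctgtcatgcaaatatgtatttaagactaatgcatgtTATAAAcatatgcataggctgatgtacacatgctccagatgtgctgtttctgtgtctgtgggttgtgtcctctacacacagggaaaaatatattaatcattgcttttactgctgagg
Col1a2: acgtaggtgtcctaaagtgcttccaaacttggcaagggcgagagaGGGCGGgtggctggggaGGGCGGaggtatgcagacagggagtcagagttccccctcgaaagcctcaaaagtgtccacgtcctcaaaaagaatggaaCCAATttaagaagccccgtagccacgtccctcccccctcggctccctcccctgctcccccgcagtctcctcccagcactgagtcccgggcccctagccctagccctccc
Col6a1: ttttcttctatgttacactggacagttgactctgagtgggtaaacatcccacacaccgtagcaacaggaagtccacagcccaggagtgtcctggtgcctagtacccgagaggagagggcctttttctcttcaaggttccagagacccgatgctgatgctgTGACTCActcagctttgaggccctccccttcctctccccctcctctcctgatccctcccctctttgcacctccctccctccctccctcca

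No motif was in all 4 windows. Col5a1 held GGGCGG at 2 places, Col1a2 held GGGCGG at 2 places and CCAAT at 1, Col3a1 held TATAAA at 1 place, and Col6a1 held TGANTCA at 1 place, from 90 to 84 bases before the start. The motif frequencies over all 32851 windows of the same length were 33.8% for CCAAT, 32.7% for GGGCGG, 12.4% for TATAAA and 6.75% for TGANTCA. GC content was 76.4% for Col5a1, 62% for Col1a2, 56% for Col6a1 and 35.2% for Col3a1. A match describes letters in a window and is not shown to be a site. Some chains sit next to each other in the genome. Col4a1 and Col4a2 lie head to head on chromosome 8 and overlap by 85 bases, and Col4a6 and Col4a5 lie 1274 bases apart on chromosome X.

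The first question was what PLX4720 did to the collagen genes of cells grown alone. With PLX4720, Col6a1 was 2.99-fold, Col5a1 2.56-fold, Col3a1 1.97-fold and Col4a5 1.94-fold higher, and Col18a1 was 1.81-fold lower. In bulk samples such as these, fewer cells of a type and less RNA per cell cannot be told apart. Of 7357 genes tested, 38.7% passed limma's test at an adjusted p under 0.05, 20.2% higher and 18.6% lower. Of the 14 collagen genes, 7 were higher and 1 was lower. The median of the 14 log2 differences was 0.50, and that of all genes was 0.01. Over the 13 genes detected in at least 1 of the 2 groups, the median was 0.51, and 0.48 with the gene that has only a bound placed at its bound. Genes that were detected in 1 treatment only, such as Col1a1 with PLX4720 and Col7a1 with DMSO, passed the filter through the group where they are high and had to differ, so the counts of both PLX4720 comparisons are a description and not a test of the family.

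The second question was the same comparison in co-culture. With PLX4720, Col3a1 was 3.39-fold, Col5a1 2.42-fold, Col16a1 1.61-fold and Col6a1 at least 2.94-fold higher, and Col18a1 and Col7a1 were lower. Of 7357 genes, 27.0% passed, 14.3% higher and 12.7% lower. Among the 14 collagen genes, 8 were higher and 2 were lower. The median of the 14 was 0.44 against 0.01 for all genes, and 0.40 with the 4 genes that have only a bound placed at their bounds.

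**Figure D2:**
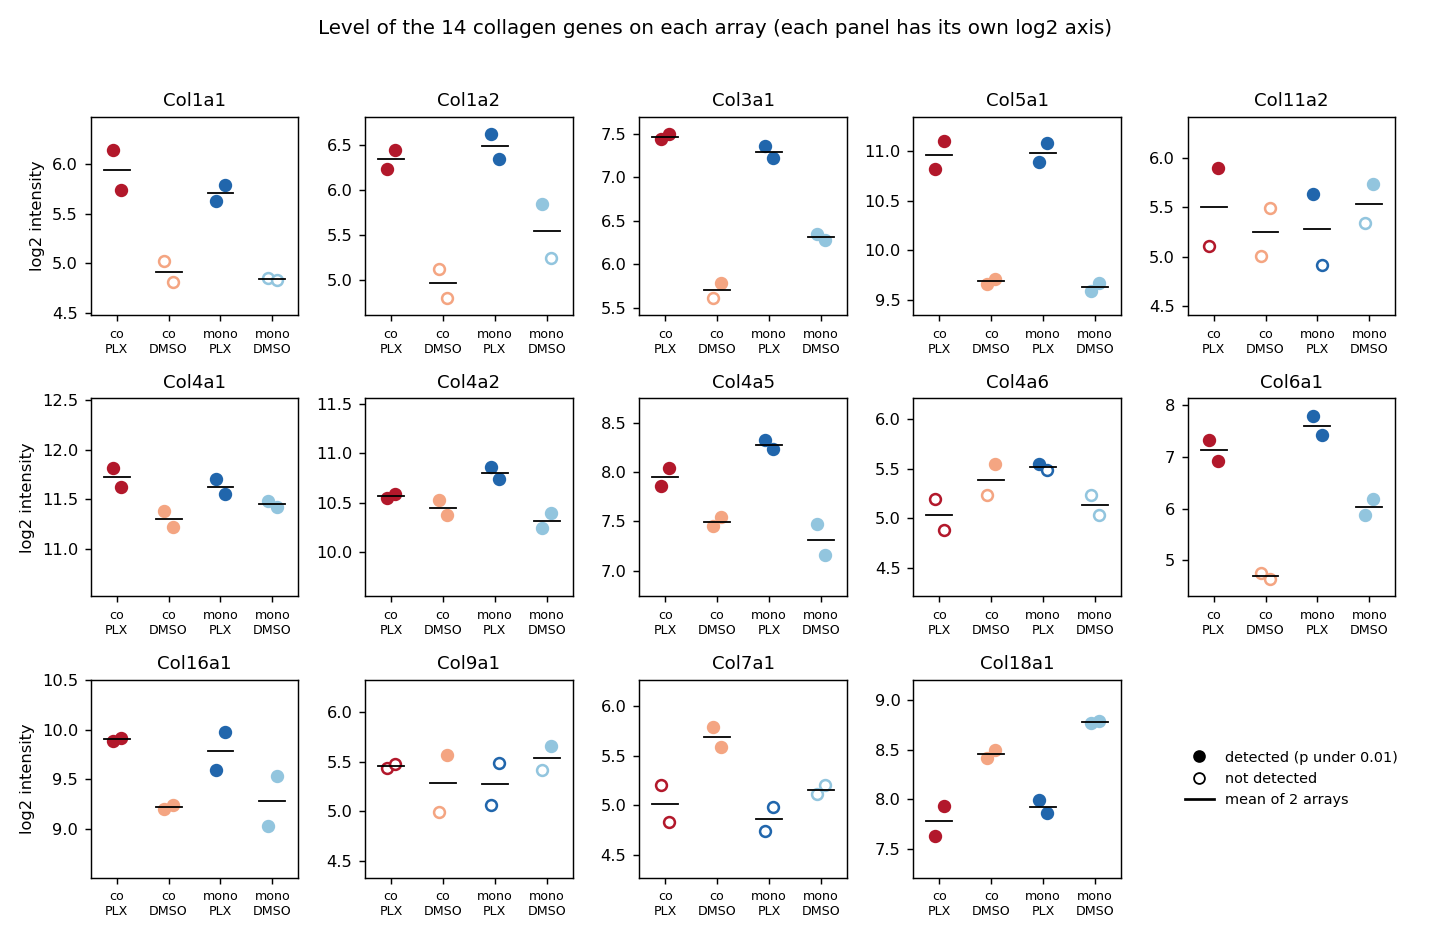
Log2 intensity after background correction and quantile normalization of the 14 detected collagen genes on each of 8 arrays, with a separate axis for each gene, so levels are to be read within a panel. Points are arrays, filled where detected, and lines are means of 2. Col5a1 was at 10.82 or more on all 4 PLX4720 arrays and at 9.71 or less on all 4 DMSO arrays.

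Of the 5 detected fibrillar chains, 4 were higher in both cultures, as were 10.4% of all genes tested. Of the 4, Col1a1, detected on no DMSO array, and Col1a2, detected on 1, met the filter only through their PLX4720 arrays. Levels are given as log2 intensity, for replicate 1 and then replicate 2, and are to be compared within a gene only. Col5a1 codes the main chain of type V collagen, which controls the start and width of collagen fibrils. It read 10.82 and 11.10 in PLX4720-treated co-cultures, against 9.66 and 9.71 in DMSO-treated co-cultures, and 10.89 and 11.09 in PLX4720-treated mono-cultures, against 9.59 and 9.67 in DMSO-treated mono-cultures. All 4 PLX4720 arrays were above all 4 DMSO arrays. The log2 difference was 1.27 in co-culture (standard error 0.14, adjusted p = 2.574e-04, limma) and 1.36 in mono-culture (standard error 0.14, adjusted p = 1.259e-04). Its partner Col5a2 was not detected.

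Col3a1 codes type III collagen, a homotrimer of elastic tissues and wounds that forms mixed fibrils with type I. The probe used read 7.44 and 7.49 in PLX4720-treated co-cultures, against 5.62 and 5.79 in DMSO-treated co-cultures. In mono-culture it read 7.36 and 7.22 with PLX4720 against 6.35 and 6.29 with DMSO. The groups did not overlap in either culture. The probe was detected on 1 of 2 arrays of DMSO-treated co-cultures, so the co-culture difference is partly against background. The log2 difference was 1.76 in co-culture (standard error 0.13, adjusted p = 2.492e-05, limma) and 0.98 in mono-culture (standard error 0.13, adjusted p = 3.888e-04).

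Col1a1 and Col1a2 code the 2 chains of type I collagen, the most abundant collagen of skin and bone. Col1a1 was detected on the 4 PLX4720 arrays and on no DMSO array. It read 6.14 and 5.74 in PLX4720-treated co-cultures, against 5.02 and 4.81 in DMSO-treated co-cultures, and 5.63 and 5.78 in PLX4720-treated mono-cultures, against 4.85 and 4.83 in DMSO-treated mono-cultures. Since the DMSO values were not above background, the gene was at least 1.30-fold higher with PLX4720 in co-culture (adjusted p = 0.00153, limma) and at least 1.11-fold higher in mono-culture (adjusted p = 0.0025). Bounds here set the mean of the brighter group against the lowest signal among detected probes on each array of the dimmer group, or the probe's own signal where that is higher.

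Col1a2 read 6.24 and 6.45 in PLX4720-treated co-cultures, against 5.12 and 4.80 in DMSO-treated co-cultures, where it was not detected. It was at least 1.71-fold higher with PLX4720 there (adjusted p = 0.00134, limma). In mono-culture it read 6.62 and 6.35 with PLX4720 against 5.84 and 5.24 with DMSO, where 1 array of 2 detected it, and the log2 difference was 0.95 (standard error 0.21, adjusted p = 0.00635).

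Col11a2, a minor fibril chain best known from cartilage, was detected on 3 arrays of different groups. It read 5.11 and 5.90 in PLX4720-treated co-cultures, against 5.01 and 5.49 in DMSO-treated co-cultures, and 5.63 and 4.92 in PLX4720-treated mono-cultures, against 5.34 and 5.73 in DMSO-treated mono-cultures. The groups overlapped in both cultures, with fitted log2 differences of 0.25 in co-culture, where no DMSO array detected it (adjusted p = 0.580, limma) and -0.26 in mono-culture (adjusted p = 0.530).

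Col6a1 codes a chain of type VI collagen, which forms beaded filaments around cells. The probe used read 7.32 and 6.93 in PLX4720-treated co-cultures, against 4.75 and 4.64 in DMSO-treated co-cultures, where it was not detected, so it was at least 2.94-fold higher with PLX4720 (adjusted p = 3.131e-05, limma). In mono-culture it read 7.80 and 7.42 with PLX4720 against 5.88 and 6.18 with DMSO, a log2 difference of 1.58 (standard error 0.19, adjusted p = 2.582e-04). A second probe was detected on both PLX4720 arrays of each culture and on no DMSO array, and it was at least 1.78-fold higher in co-culture (adjusted p = 4.031e-05) and at least 2.58-fold higher in mono-culture (adjusted p = 8.422e-05, both over all 10039 named probes), while the remaining probe was detected nowhere. The PLX4720 arrays of each culture were above its DMSO arrays by both probes. The second probe passed the filter through its PLX4720 arrays alone and had to differ, so it adds no test of Col6a1.

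Of the 4 detected type IV chains, 2 were higher with PLX4720 in each culture, Col4a1 and Col4a5 in co-culture (14.3% of all genes) and Col4a2 and Col4a5 in mono-culture (20.2% of all genes). Col4a1 and Col4a2 code the 2 chains of the network that every basement membrane holds. Col4a1 read 11.82 and 11.62 in PLX4720-treated co-cultures, against 11.38 and 11.22 in DMSO-treated co-cultures, a log2 difference of 0.42 (standard error 0.13, adjusted p = 0.0421, limma). In mono-culture it read 11.70 and 11.55 with PLX4720 against 11.48 and 11.42 with DMSO, a difference of 0.17 (standard error 0.13, adjusted p = 0.335). Col4a2 read 10.54 and 10.59 in PLX4720-treated co-cultures, against 10.52 and 10.37 in DMSO-treated co-cultures, a difference of 0.12 (standard error 0.13, adjusted p = 0.533). In mono-culture it read 10.86 and 10.74 with PLX4720 against 10.24 and 10.39 with DMSO, a difference of 0.48 (standard error 0.13, adjusted p = 0.0147). The difference between the cultures did not pass for either (adjusted p = 0.531 for Col4a1 and 0.342 for Col4a2).

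Col4a5, a chain of the kidney filter and of some other membranes, read 7.86 and 8.04 in PLX4720-treated co-cultures, against 7.46 and 7.54 in DMSO-treated co-cultures, a log2 difference of 0.45 (standard error 0.14, adjusted p = 0.0427, limma). It read 8.32 and 8.23 in PLX4720-treated mono-cultures, against 7.47 and 7.16 in DMSO-treated mono-cultures, a difference of 0.96 (standard error 0.14, adjusted p = 8.514e-04). Its neighbor Col4a6 was detected on 1 array of PLX4720-treated mono-cultures and 1 of DMSO-treated co-cultures. It read 5.20 and 4.88 in PLX4720-treated co-cultures, against 5.24 and 5.54 in DMSO-treated co-cultures, and 5.54 and 5.49 in PLX4720-treated mono-cultures, against 5.24 and 5.04 in DMSO-treated mono-cultures. The fitted log2 difference of Col4a6, against a group not above background in both cultures, was -0.35 in co-culture (adjusted p = 0.133) and 0.38 in mono-culture (adjusted p = 0.0880).

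Col16a1, a fibril-associated chain that links fibrils to other matrix, read 9.89 and 9.92 in PLX4720-treated co-cultures, against 9.20 and 9.24 in DMSO-treated co-cultures, a log2 difference of 0.69 (standard error 0.18, adjusted p = 0.0223, limma). In mono-culture it read 9.60 and 9.98 with PLX4720 against 9.03 and 9.53 with DMSO, a difference of 0.51 (standard error 0.18) that did not pass (adjusted p = 0.0541), although it passed under 7 of the alternatives. Col9a1, a cartilage chain of the same class, was detected on 1 array of each DMSO group. It read 5.43 and 5.47 in PLX4720-treated co-cultures, against 4.99 and 5.57 in DMSO-treated co-cultures, and 5.06 and 5.49 in PLX4720-treated mono-cultures, against 5.41 and 5.66 in DMSO-treated mono-cultures. The groups overlapped, and Col9a1 did not pass in either culture (adjusted p = 0.581 in co-culture and 0.342 in mono-culture).

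Col18a1 and Col7a1 were the 2 genes that passed in the downward direction, Col18a1 in both cultures and Col7a1 in co-culture. Col18a1 codes a basement membrane collagen whose end fragment, endostatin, inhibits vessel growth. It read 7.62 and 7.93 in PLX4720-treated co-cultures, against 8.42 and 8.49 in DMSO-treated co-cultures, and 7.99 and 7.86 in PLX4720-treated mono-cultures, against 8.77 and 8.79 in DMSO-treated mono-cultures. All 4 PLX4720 arrays were below all 4 DMSO arrays. The log2 difference was -0.68 in co-culture (standard error 0.14, adjusted p = 0.00646, limma) and -0.85 in mono-culture (standard error 0.14, adjusted p = 0.00132). Col7a1 was detected only in DMSO-treated co-cultures, on both arrays, at 5.79 and 5.59. It read 5.20 and 4.83 in PLX4720-treated co-cultures and was at least 1.08-fold lower there (adjusted p = 0.0136), having passed the filter through the DMSO group alone, and no mono-culture array detected it, with 4.75 and 4.99 under PLX4720 against 5.11 and 5.21 under DMSO.

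**Figure D3:**
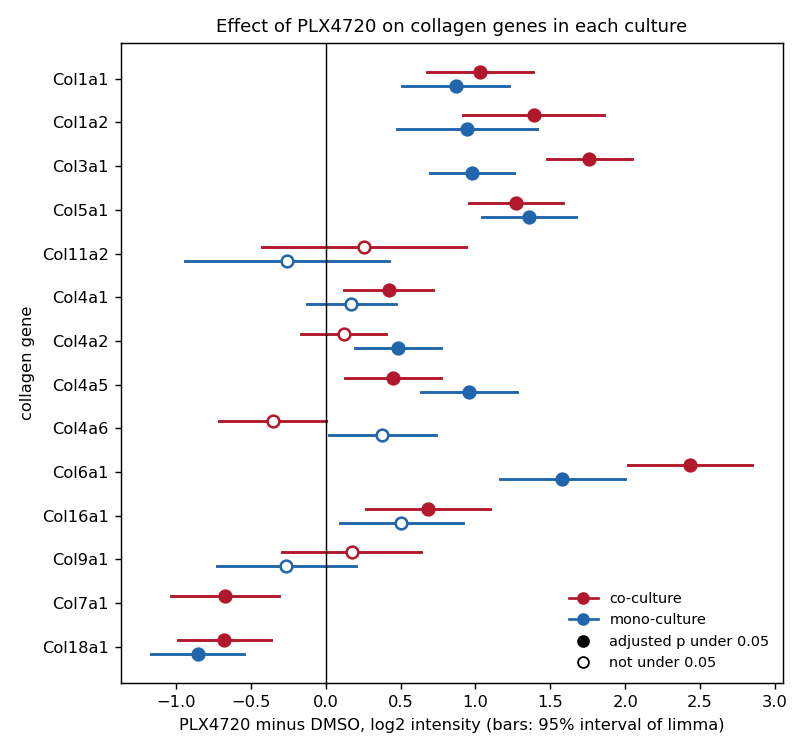
Log2 difference of PLX4720 minus DMSO for each collagen gene in co-culture (upper point) and mono-culture (lower point), with 95% intervals from limma, filled where the adjusted p was under 0.05. Col7a1 was detected in neither group of mono-cultures and has no point there. Fitted values against a group that did not detect the gene are no measured folds. With DMSO this holds for Col1a1 in both cultures, Col1a2, Col6a1 and Col11a2 in co-culture and Col4a6 in mono-culture. With PLX4720 it holds for Col9a1 in both cultures and for Col7a1 and Col4a6 in co-culture. Col6a1 lay farthest to the right at 2.43 in co-culture, and Col18a1 lay left of 0 in both cultures.

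The sizes depended on the background correction. Without background subtraction, the log2 difference in co-culture was 0.82 for Col3a1, 0.93 for Col6a1, 0.46 for Col1a2 and 0.31 for Col1a1, and in mono-culture it was 0.49 for Col3a1, 0.80 for Col6a1, 0.35 for Col1a2 and 0.25 for Col1a1, all still called, and the authors' log2 values gave nearly the same, so the folds and lower bounds of these genes hold for background-corrected values only. Of the 18 calls in the 2 PLX4720 comparisons, those of Col1a1, Col1a2, Col3a1, Col5a1 and Col6a1 in both cultures and of Col18a1 and Col4a5 in mono-culture held whichever array was left out. In mono-culture, Col4a2 lost its call without replicate 1 of either group (adjusted p up to 0.0894, limma). In co-culture, Col16a1 lost it without any of the 4 co-culture arrays (up to 0.108) and Col18a1 without replicate 2 of the DMSO group (0.0552). Col7a1 lost it without replicate 2 of the PLX4720 group or replicate 1 of the DMSO group (up to 0.109). Col4a5 lost it without any co-culture array or either PLX4720-treated mono-culture array (up to 0.210), and Col4a1 without replicate 1 of PLX4720-treated co-cultures or any DMSO array (up to 0.248).

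The third question was whether co-culture changed the collagen genes in the presence of DMSO. Of 7357 genes, 1.66% passed, 0.625% higher and 1.03% lower. Of the 14 collagen genes, none was higher and 2 were lower, Col6a1 and Col3a1, and 5 of the 14 had an unadjusted p under 0.05. The median of the 14 was -0.11 against 0.01 for all genes, and -0.16 over the 13 genes detected in at least 1 of the 2 groups. Col6a1 read 4.75 and 4.64 in DMSO-treated co-cultures, against 5.88 and 6.18 in DMSO-treated mono-cultures. It was at least 1.37-fold lower in co-culture (adjusted p = 0.00705, limma), and its second probe was detected in neither group. Col3a1 read 5.62 and 5.79 in co-culture against 6.35 and 6.29 in mono-culture, a log2 difference of -0.61 (standard error 0.13, adjusted p = 0.0472). The call for Col3a1 was lost whichever of the 8 arrays was left out, with an adjusted p of up to 0.380 (without replicate 1 of DMSO-treated co-cultures). The call for Col6a1 was lost when either array of DMSO-treated co-cultures or replicate 2 of DMSO-treated mono-cultures was left out (adjusted p up to 0.0825).

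The fourth question was the same comparison under PLX4720. Of 7357 genes, 7.35% passed, 3.89% higher and 3.47% lower. Of the 14 collagen genes, none passed, and 3 had an unadjusted p under 0.05, namely Col4a6, Col6a1 and Col4a5. The median was -0.09 over the 12 genes detected in at least 1 of the 2 groups and 0.03 over all 14, against 0.01 for all genes. For Col5a1 the log2 difference between co-culture and mono-culture was -0.03, with a 95% interval from -0.34 to 0.29, and for Col4a1 it was 0.09, with an interval from -0.20 to 0.39. For Col6a1 it was -0.48 (interval from -0.90 to -0.07, adjusted p = 0.138, limma). For Col4a5 it was -0.33 (interval from -0.65 to -0.01, adjusted p = 0.182). A p that misses the threshold does not show that the cultures are alike, and these intervals give the sizes the data allow.

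**Figure D4:**
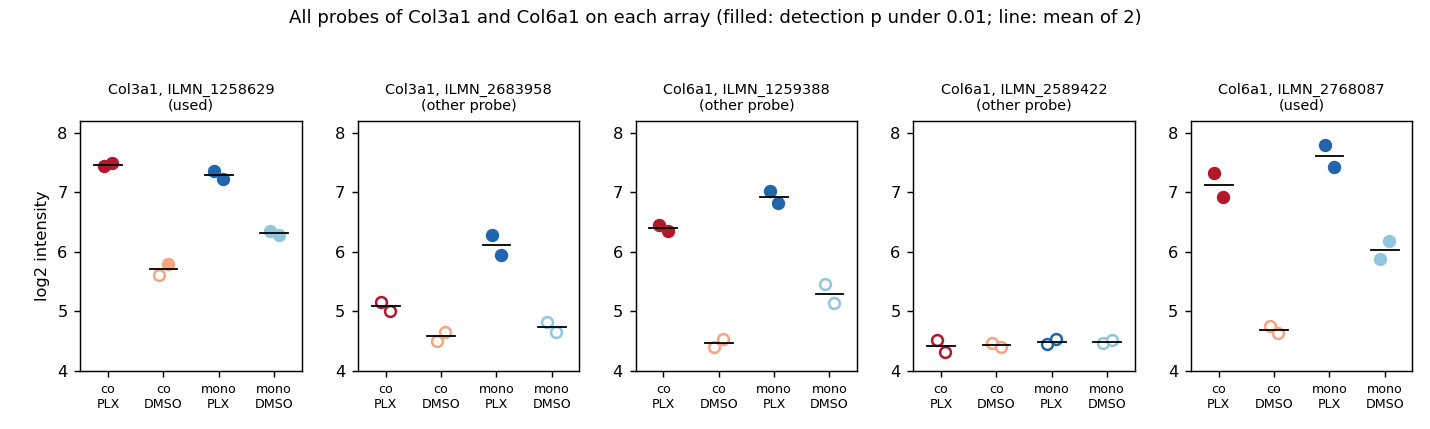
Log2 intensity on each of 8 arrays for the 2 probes of Col3a1 and the 3 of Col6a1, with arrays as points, filled where detected, and means of 2 as lines. Groups are to be compared within a panel only. The second probe of Col3a1 was detected on the 2 arrays of PLX4720-treated mono-cultures alone.

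The 2 probes of Col3a1 did not agree under PLX4720. The probe used read 7.44 and 7.49 in PLX4720-treated co-cultures against 7.36 and 7.22 in PLX4720-treated mono-cultures, a log2 difference of 0.17 (adjusted p = 0.438 in the fit of all 10039 named probes, limma). The second probe read 5.16 and 5.01 in PLX4720-treated co-cultures, where it was not detected, against 6.28 and 5.94 in PLX4720-treated mono-cultures, where both arrays detected it. It was at least 1.44-fold lower in co-culture (adjusted p = 0.00928). With DMSO the second probe was detected in neither culture. It was at least 1.47-fold higher with PLX4720 in mono-culture (adjusted p = 2.111e-04), and was detected in neither group of co-cultures. The second probe passed the filter through PLX4720-treated mono-cultures alone and had to differ, so its 2 comparisons are a description and not a test. The 2 kept probes of Col6a1 gave the same direction, with log2 differences of -0.48 and -0.52 (adjusted p = 0.143 and 0.0698 in that fit).

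The fifth question was whether the PLX4720 effect differed between the cultures. Of 7357 genes, 0.122% passed, and of the 14 collagen genes none did, with 4 at an unadjusted p under 0.05. These were Col3a1 (0.79, 95% interval from 0.39 to 1.18, adjusted p = 0.0854), Col6a1 (0.85, interval from 0.27 to 1.44, adjusted p = 0.166), Col4a6 (-0.73, interval from -1.24 to -0.23, adjusted p = 0.166) and Col4a5 (-0.51, interval from -0.96 to -0.06, adjusted p = 0.245), all as fitted log2 differences of co-culture minus mono-culture from limma. Col6a1 was not detected in DMSO-treated co-cultures, where Col3a1 was detected on 1 array of 2, and Col4a6 was detected neither in PLX4720-treated co-cultures nor in DMSO-treated mono-cultures, so the values for these genes are partly or wholly set against background and are no measured differences. The 2 PLX4720 comparisons share no arrays, while the comparisons between cultures share an array group with each of them.

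Fibroblast transcripts were checked beside the collagen values. The summed level, in linear normalized intensity, of the 7 measured fibroblast markers that are no collagens ran from 3720 to 4561 in PLX4720-treated co-cultures, from 2854 to 3003 in DMSO-treated co-cultures, from 3884 to 3907 in PLX4720-treated mono-cultures and from 2661 to 2761 in DMSO-treated mono-cultures. It was higher on all PLX4720 arrays, also in mono-culture. Among its genes Cd248, Pdgfrb, Mfap5 and Ogn were higher and Twist2 was lower in both cultures, and Pdgfra and Prrx1 passed in neither. Mfap5 and Ogn passed the filter through their PLX4720 arrays alone. Ogn weighs heavily in the linear sum, with a log2 mean of 10.37 in PLX4720-treated mono-cultures against 4.71 in DMSO-treated ones. Twist2, also bright, went the other way, at 10.29 against 10.96 in the same groups. Going by the group means, the sum is higher with PLX4720 only when Ogn is included. The sum is therefore no even measure of the list. Of the 17 markers with a probe, 10 were detected on no array, among them Dcn, Lum, Thy1, Fap and Postn. The 5 markers Pdgfra, Pdgfrb, Cd248, Twist2 and Prrx1 were detected on all 8 arrays. No fibroblast marker passed between co-culture and mono-culture in DMSO or in PLX4720 (7 tested, limma, 0 called, and 1.66% and 7.35% of all genes called). The part of fibroblast transcripts in the collagen values was not tested.

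Collagen chains depend on enzymes and chaperones, and the other genes of the pathway were read from fixed lists. Of 22 genes of collagen folding and modification, 18 were tested. With PLX4720, 2 were higher and none lower in co-culture, where 14.3% of all genes were higher and 12.7% lower, and 4 were higher and 3 lower in mono-culture, where 20.2% were higher and 18.6% lower. P3h4, a component of the complex that modifies collagen lysines in the endoplasmic reticulum, was higher by 0.65 in co-culture (adjusted p = 0.00436, limma) and by 0.58 in mono-culture (adjusted p = 0.00508). P3h2, a prolyl 3-hydroxylase that acts on type IV collagen, was at least 1.36-fold higher in co-culture (adjusted p = 0.0227) and at least 1.68-fold higher in mono-culture (adjusted p = 0.00753). Detected on no DMSO array, P3h2 passed the filter through its PLX4720 arrays alone and had to differ, so its part in these counts is no test. Plod2, the lysyl hydroxylase of fibril cross-links, was higher by 0.56 in mono-culture (adjusted p = 0.00748), and the chaperone gene Pdia4 was lower by a log2 difference of -0.53 (adjusted p = 0.0177). P4ha1, a subunit of the prolyl 4-hydroxylase, was at least 1.31-fold higher in PLX4720-treated co-cultures than in PLX4720-treated mono-cultures (adjusted p = 0.0385). It was the 1 gene of the 18 called there, where 3.89% of all genes were higher. The medians of the 18 were 0.22 in co-culture and 0.11 in mono-culture.

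Of 20 genes of collagen secretion, trimming and cross-linking, 8 were tested, and with PLX4720 2 were higher in co-culture (14.3% of all genes), and 2 higher and 1 lower in mono-culture (20.2% and 18.6% of all genes). Pcolce, which speeds the removal of the end propeptide from fibrillar chains, was higher by 0.88 in co-culture (adjusted p = 0.00342, limma) and by 1.00 in mono-culture (adjusted p = 0.00118). Loxl1, a cross-linking oxidase, was higher by 0.45 in co-culture (adjusted p = 0.0497) and by 0.55 in mono-culture (adjusted p = 0.0163). Pcolce2 was at least 1.70-fold lower in mono-culture (adjusted p = 9.703e-04). Of 11 collagen receptors, 3 were tested, and with PLX4720 1 was higher in each culture (14.3% of all genes in co-culture and 20.2% in mono-culture). It was Ddr1, a tyrosine kinase that collagen activates, higher by 0.94 in co-culture (adjusted p = 6.678e-04) and by 1.36 in mono-culture (adjusted p = 6.390e-05).

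Of 17 degradation genes, 9 were tested, and with PLX4720 5 were higher and 1 lower in co-culture (14.3% and 12.7% of all genes), and 3 higher and 2 lower in mono-culture (20.2% and 18.6% of all genes). Ctsl, 1 of the 2 lower in mono-culture, was detected on all 4 DMSO arrays and on no PLX4720 array. It passed the filter through its DMSO arrays alone and had to differ, so its part in these counts is no test. The protease gene Mmp14 was higher by 0.90 in co-culture (adjusted p = 0.00552, limma) and by 1.06 in mono-culture (adjusted p = 0.00161). Timp3, an inhibitor of such proteases that binds to matrix, was higher by 2.09 in co-culture (adjusted p = 3.790e-05) and by 1.38 in mono-culture (adjusted p = 2.714e-04). Another inhibitor gene, Timp1, had log2 differences of -1.44 in co-culture (adjusted p = 3.727e-04) and -1.34 in mono-culture (adjusted p = 3.519e-04), so the inhibitors moved in both directions. Mmp16 was higher by 1.19 in co-culture (adjusted p = 0.00207), and the gelatinase gene Mmp2 by 0.79 in co-culture (adjusted p = 0.0114) and by 1.06 in mono-culture (adjusted p = 0.00186).

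Of 17 basement membrane partners of type IV, XV and XVIII collagen, 9 were tested. With PLX4720, 3 were higher in co-culture (14.3% of all genes) and 4 in mono-culture (20.2% of all genes), and none was lower. The linker Nid2 was higher with PLX4720 by 2.08 in co-culture (adjusted p = 2.713e-05, limma) and by 2.06 in mono-culture (adjusted p = 2.533e-05), and the laminin chain Lamb2 by 1.00 in co-culture (adjusted p = 9.921e-04) and by 1.83 in mono-culture (adjusted p = 3.194e-05). Sparc, which binds collagen, was higher by 0.49 in co-culture (adjusted p = 0.0134) and by 0.34 in mono-culture (adjusted p = 0.0426), and Agrn, a proteoglycan, by 0.90 in mono-culture (adjusted p = 0.00795). Between cultures, 1 of the 9 was lower with DMSO (1.03% of all genes) and 2 with PLX4720 (3.47% of all genes), and none was higher. The log2 difference of the linker Nid1 was -1.08 with DMSO (adjusted p = 0.0178). With PLX4720 it was -0.59 for Lamb2 (adjusted p = 0.0399) and -0.81 for the perlecan gene Hspg2 (adjusted p = 0.0309), all lower in co-culture. No list member passed in the test of the difference between the cultures. Of 15 fibril-associated matrix proteins, 5 were tested. With PLX4720, 2 were higher in co-culture (14.3% of all genes) and 1 in mono-culture (20.2% of all genes), and none was lower. Thbs1 was higher with PLX4720 by 0.94 in co-culture (adjusted p = 0.0344) and by 2.87 in mono-culture (adjusted p = 9.166e-05). The small proteoglycan gene Bgn was higher with PLX4720 in co-culture by 1.58 (adjusted p = 4.842e-04), and higher in PLX4720-treated co-cultures than in PLX4720-treated mono-cultures by 0.88 (adjusted p = 0.0320). In the latter comparison it was the 1 gene of the 5 called, and 3.89% of all genes were higher. Of 9 collagen family genes whose symbols fall outside the rule, 2 were tested and none passed in any comparison.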

How the data were processed

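RNA of 8 samples was measured on Illumina mouse BeadChips. Linear, non-normalized intensities and a detection p-value for each probe make up the table that the authors deposited. The authors also deposited log2 values, which differed from quantile-normalized intensities by at most 0.0047. Their processing notes name lumi, whose version is not given in the sources used here. Columns were mapped from array titles, and none was left unmapped (0).

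Background correction (negative controls inferred from detection p), quantile normalization and log2 transformation were done by neqc (offset 16), from limma 3.58.1 under R 4.3.3. The detection filter, p under 0.01 on 2 or more arrays, kept 10660 of 25697 probes, 10039 of them named. Of 25697 probes, 23978 had 1 gene symbol and 1719 none in the platform annotation, and 23962 matched RefSeq (GRCm38.p6) by gene identifier. A gene was read from its brightest kept probe on average, a choice that arose for 1953 of the 7357 genes. With 2 arrays a group, their number limits the precision.

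A mean for each of the 4 groups was fitted (lmFit, eBayes, 8 arrays, 4 residual and 5.49 prior degrees of freedom), and p was adjusted over all genes tested by the method of Benjamini and Hochberg. For the comparison of co-culture with mono-culture, the study's methods name Student's t as the metric that ranks genes for gene set enrichment. They also select genes for a signature by a cut on the fold change in co-culture. No test per gene is named for these arrays. All 14 detected collagen genes are named, and of each list of the collagen pathway up to 4 members that passed in a comparison, by smallest p. Mmp2 in co-culture and Ctsl are named beyond these 4. Members and lists were chosen with earlier results of these data known. The fit was tested on simulated data. Alternatives were other background settings, scalings, filters, probe rules, the authors' log2 values, a replicate block and fewer arrays. The methods' t-test (Student's) and a count restricted to genes detected in the groups compared were added after seeing the data.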

Additional observations from a re-analysis of the deposited data

Results flagged for a closer look

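The co-culture effect on Col3a1 went in opposite directions in the 2 treatments. Both arrays of DMSO-treated co-cultures were below both of DMSO-treated mono-cultures, and both arrays of PLX4720-treated co-cultures were above both of PLX4720-treated mono-cultures. The difference of the log2 effects was 0.79, with an adjusted p of 0.0854 from limma's test of the difference, so it did not pass. It rests on the probe used, and the second probe of Col3a1 gave -0.87 (adjusted p = 0.110 in the fit of all named probes).

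The PLX4720 effect on Col4a6 went in opposite directions in the cultures, lower on both arrays in co-culture and higher on both arrays in mono-culture. The difference was -0.73 on the log2 scale (adjusted p = 0.166 from limma), so it did not pass either, and it is a fitted value against groups not above background. Col4a6 was detected on 2 of 8 arrays, 1 in DMSO-treated co-cultures and 1 in PLX4720-treated mono-cultures, and its signal was near background.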

How the results depend on the processing

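Of 20 collagen calls in the comparisons of 4 arrays, 12 were lost only under the methods' t-test where the gene was still tested. The other 8 were lost under other alternatives too. Detection on all 8 arrays left Col1a1, Col1a2, Col3a1, Col6a1 and Col7a1 untested, so their calls were absent there. None of the 20 changed direction. The number of collagen genes called lower or higher in co-culture against mono-culture in DMSO was 2, and became 0 without background subtraction, with the authors' log2 values, with detection on all 8 arrays and with the methods' t-test, and 1 with an offset of 50, median scaling, no detection filter, the mean of probes, every probe tested, only the 4 arrays compared and the replicate block, and 0 to 1 when 1 array was left out. In PLX4720 it was 0, and 1 with every probe tested, which was the second probe of Col3a1, kept through PLX4720-treated mono-cultures alone. For PLX4720 against DMSO in mono-culture, the 8 calls became 5 with detection on all 8 arrays. There only 6 collagen genes were tested, and 2574 of all 6253 genes were called. The methods' t-test called 0 collagen genes and 0 of 7357 genes after adjustment. At an unadjusted p under 0.05 it called 7 collagen genes and 2241 of all genes. In co-culture the 10 calls became 5 with detection on all 8 arrays (1814 of all 6253 genes called). They became 0 with that t-test (7 of all 7357 genes called). At an unadjusted p under 0.05, that t-test called 7 collagen genes and 1950 of all genes in co-culture. Detection on all 8 arrays left 6 of 14 genes, and a detection p under 0.05 gave 17. With the replicate block, 9 collagen genes were called in each PLX4720 comparison, beside 2815 of all 7357 genes in mono-culture and 1921 in co-culture. The block gained Col16a1 in mono-culture and lost Col4a5 in co-culture. The deviations of same-numbered arrays had correlations of -0.08 to 0.09. The array titles carry the letter A for replicate 1 and B for replicate 2. Whether same-numbered arrays share a batch is not stated in the labels.

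Sizes shrank without background subtraction, for PLX4720 in co-culture to 0.82 for Col3a1 and 0.93 for Col6a1 on the log2 scale, and in mono-culture to 0.49 and 0.80 for the same genes. Col16a1 in mono-culture gained a call without background subtraction, with an offset of 50, with the authors' log2 values, with detection on all 8 arrays, with the replicate block, and without replicate 1 of the PLX4720 group or replicate 2 of the DMSO group. Directions that turned belonged to genes without a call. With median scaling, co-culture against mono-culture gave -0.0084 for Col5a1 under DMSO, 0.14 under PLX4720 and 0.15 for the difference. With the mean of probes, Col3a1 gave -0.43 in PLX4720 and -0.042 for the difference. When 1 array was left out, co-culture against mono-culture in PLX4720 ranged from -0.17 to 0.11 for Col5a1, from -0.30 to 0.0059 for Col18a1, from -0.0037 to 0.19 for Col4a1, from -0.16 to 0.62 for Col11a2 and from -0.075 to 0.31 for Col16a1. In DMSO it ranged from -0.54 to 0.031 for Col9a1 and from -0.31 to 0.19 for Col16a1. PLX4720 against DMSO ranged from -0.14 to 0.65 for Col11a2 and from -0.11 to 0.46 for Col9a1 in co-culture, and from -0.61 to 0.10 for Col11a2 in mono-culture. The difference between the cultures ranged from -0.23 to 0.057 for Col5a1, from -0.039 to 0.36 for Col1a1 and from -0.070 to 0.43 for Col16a1. Genes near background, among them Col1a1, Col7a1 and Col4a6, have only bounds or weak signals at this intensity. In the test of the difference between the cultures, the 9 of all genes called became 95 without background subtraction, 122 with an offset of 50, 110 with median scaling and 52 with the replicate block, with no collagen gene among them. For co-culture against mono-culture, the 122 of all genes called in DMSO became 211 without background subtraction and 65 with no detection filter, and the 541 called in PLX4720 became 890 and 196. They ranged from 17 to 141 and from 15 to 625 when 1 array was left out.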

Other observations

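Of the 23 collagen genes not detected at a p under 0.01 on 2 arrays, 3 had a detection p under 0.05 on at least 2 arrays. Col5a2, whose chain joins those of Col5a1 in type V collagen, and Col25a1, a collagen known from neurons, each did so on 3 arrays, both arrays of PLX4720-treated co-cultures and 1 of PLX4720-treated mono-cultures, and on no DMSO array. The lowest detection p was 0.0138 for each. Col5a3 did so on 1 array of PLX4720-treated mono-cultures and 1 of DMSO-treated mono-cultures. These signals are at the background and no fold is given.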
